A study of Oryza sativa Japonica Group with 22 samples.

Results

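Across 22 RNA-seq libraries of rice seeds, 31 of 38866 genes had a lower normalised read count in each of the 10 libraries that carry the sunflower albumin gene HaSSA than in any of the 12 libraries without it. These genes were picked by that pattern and by a mean of at least 1 CPM (read counts relative to the library size, scaled by TMM) in the parental line Taipei, which 22000 genes reached. Before genes treated elsewhere were left out, 34 genes, or 0.155% of the 22000, met the pattern, against 77 genes, or 0.350%, with the opposite one. The 3 genes left out were Os06g0507200, Os05g0499100 and Os07g0215500, with log2 differences of -2.22, -1.15 and -1.46. The difference between the libraries with and without HaSSA is therefore what chose the genes, and it is described here without a test.

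The material was seed of SSA (n = 3 libraries), CGS × SSA (n = 4) and SAT × SSA (n = 3), which carry HaSSA, and of CGS (n = 5), SAT (n = 3) and untransformed Taipei (n = 4), which do not. All were japonica rice, harvested 10 days after flowering in the milkripe stage, with 1 library made from the seeds of a single panicle. HaSSA was expressed with an ER retention signal from a wheat glutenin promoter, CGS carried a feedback-insensitive Arabidopsis cystathionine gamma-synthase (AtD-CGS), and SAT carried the serine acetyltransferase of Escherichia coli (EcSAT), both targeted to plastids and driven by the maize ubiquitin promoter. Each double line came from a cross in which SSA gave the pollen, so every HaSSA library descends from the same transgenic line, and HaSSA cannot be told apart from anything else inherited with it. Both double lines hold 2 segregants, and the labels do not say which library came from which. The panicles came from separate plants, and p-values of the edgeR and DESeq2 fits measure the spread between such plants within a line.

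In the milkripe stage the cereal endosperm fills with starch and with storage proteins, which are made on the rough endoplasmic reticulum and stored in protein bodies, and a few transcripts of storage proteins make up a large part of the messenger RNA of the tissue. The sunflower albumin is dense in methionine and cysteine and enters the same secretory pathway. The enzyme CGS leads from cysteine towards methionine, and SAT makes the O-acetylserine to which sulfide is added to form cysteine. No annotation of the gene identifiers was at hand, and the genes below are given by identifier, without a function.

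Between 29642343 and 32129547 counts were assigned to genes in CGS × SSA, between 30096050 and 41585957 in SAT × SSA and between 31221925 and 33745683 in SSA, against 32674435 to 37642924 in the libraries without HaSSA. Replicate 1 of SAT × SSA stood apart. Of its reads, 20.3% fell on no gene on the strand counted, against 11.8% to 14.9% in the other 21 libraries. This share includes reads on the opposite strand of a gene. Replicate 3 of SSA was the lowest of that line for many genes described below. Reads that mapped to the rice genome nowhere made up 2.87% to 8.07% of the reads in HaSSA libraries and 0.630% to 0.920% in the others. The paper counted the reads of the transgenes, HaSSA included, among those left unmapped by the rice genome. How many of the unmapped reads were of HaSSA was not measured here. The TMM factors were 1.01 to 1.15 in HaSSA libraries and 0.846 to 1.01 in the others. The part of the unmapped reads in the differences below was not tested. Of 3 short lists of identifiers written from general knowledge as markers of seed tissues and not checked against an annotation, the endosperm list contains 1 of the 31 genes, Os01g0762500. Its remaining identifiers summed to 4223 ± 580 CPM in HaSSA libraries and 5190.1 ± 757 CPM in the others (SD, n = 10 and 12, two-sided permutation test with 100000 resamples, p = 0.00349). Nearly all of this sum was Os06g0133000, with line means of 4054 CPM in SSA, 4411 CPM in CGS × SSA and 4089 CPM in SAT × SSA, against 4952 CPM in CGS, 4994 CPM in SAT and 5590.4 CPM in Taipei, so the test is in effect one of a single gene. The other identifier, Os02g0249800, averaged 10.6, 14.4 and 23.3 CPM in the HaSSA lines and 17.2, 12.1 and 13.9 CPM in the others, in the same order of lines. The embryo and aleurone list summed to 2774 ± 706 CPM in HaSSA libraries and 3088 ± 619 CPM in the others (permutation p = 0.275), and the green pericarp list to 1067 ± 149 CPM in HaSSA libraries and 1096 ± 212 CPM in the others (permutation p = 0.722). Over the 3 lists, the Benjamini-Hochberg adjusted p-values of these permutation tests were 0.0105, 0.412 and 0.722. The resampling moved libraries without regard to line, so these p-values mix the spread between lines with that within a line. With library size alone in place of TMM, HaSSA libraries minus the others gave -272 CPM for the endosperm list (permutation p = 0.277), and the embryo and green lists turned to 109.9 CPM higher (permutation p = 0.658) and 129 CPM higher (permutation p = 0.163) in HaSSA libraries. No listed identifier was at 0 in any library. Fewer cells of a type and less RNA per cell cannot be told apart in such samples, and the part of tissue makeup in the differences below was not tested.

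**Figure D1:**
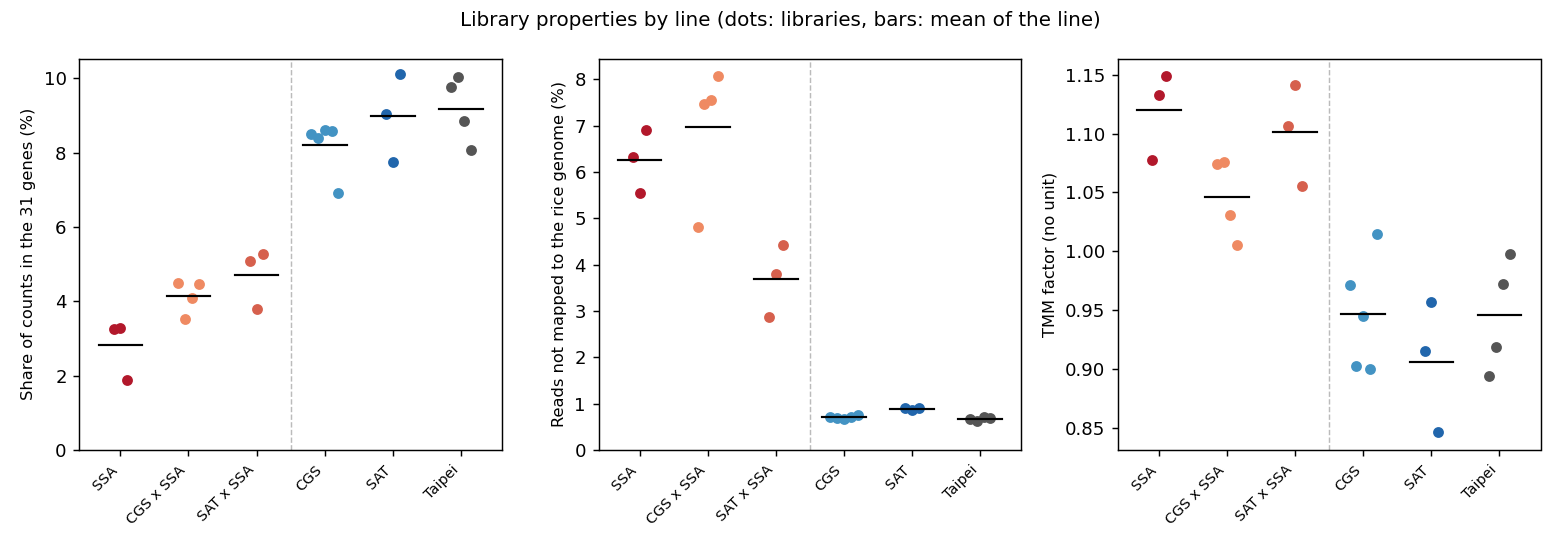
The share of gene counts held by the 31 genes (left), the share of reads not mapped to the rice genome (middle) and the TMM factor (right), by line, with a dot for each library and a bar for the mean of the line. The 31 genes held 2.82% of the counts in SSA and 9.17% in Taipei.

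The 31 genes held 2.82% ± 0.799 of all gene counts in SSA, 4.15% ± 0.458 in CGS × SSA, then 4.72% ± 0.803 in SAT × SSA, against 8.19% ± 0.717 in CGS, 8.97% ± 1.18 in SAT and 9.17% ± 0.894 in Taipei (SD, n as above). Most of it lay in Os01g0762500 and Os10g0400200, which together held 1.60% to 4.23% of the counts in HaSSA libraries and 5.70% to 8.41% in the others, and which had the highest CPM of all genes in Taipei. CPM is not divided by transcript length, so this order is one of reads and not of transcript numbers. The mean CPM of the 31 genes in Taipei ranged widely, with a lowest of 2.34, a median of 82.7 and a highest of 44892. Of the genes, 4 were above 1000 CPM, 23 from 10 to 1000 CPM and 4 under 10 CPM.

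The size of the difference varied. On the log2 scale, the mean of the HaSSA libraries over that of the others was under -1 for 8 genes, from -1 to -0.5 for 4 genes and above -0.5 for 19 genes, with extremes of -1.99 and -0.15 and a median of -0.37. The gap between both sets of libraries was mostly narrow. The lowest of the 12 libraries without HaSSA was under 1.1 times the highest of the 10 HaSSA libraries for 24 genes, and in none did it reach 1.5 times.

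**Figure D2:**
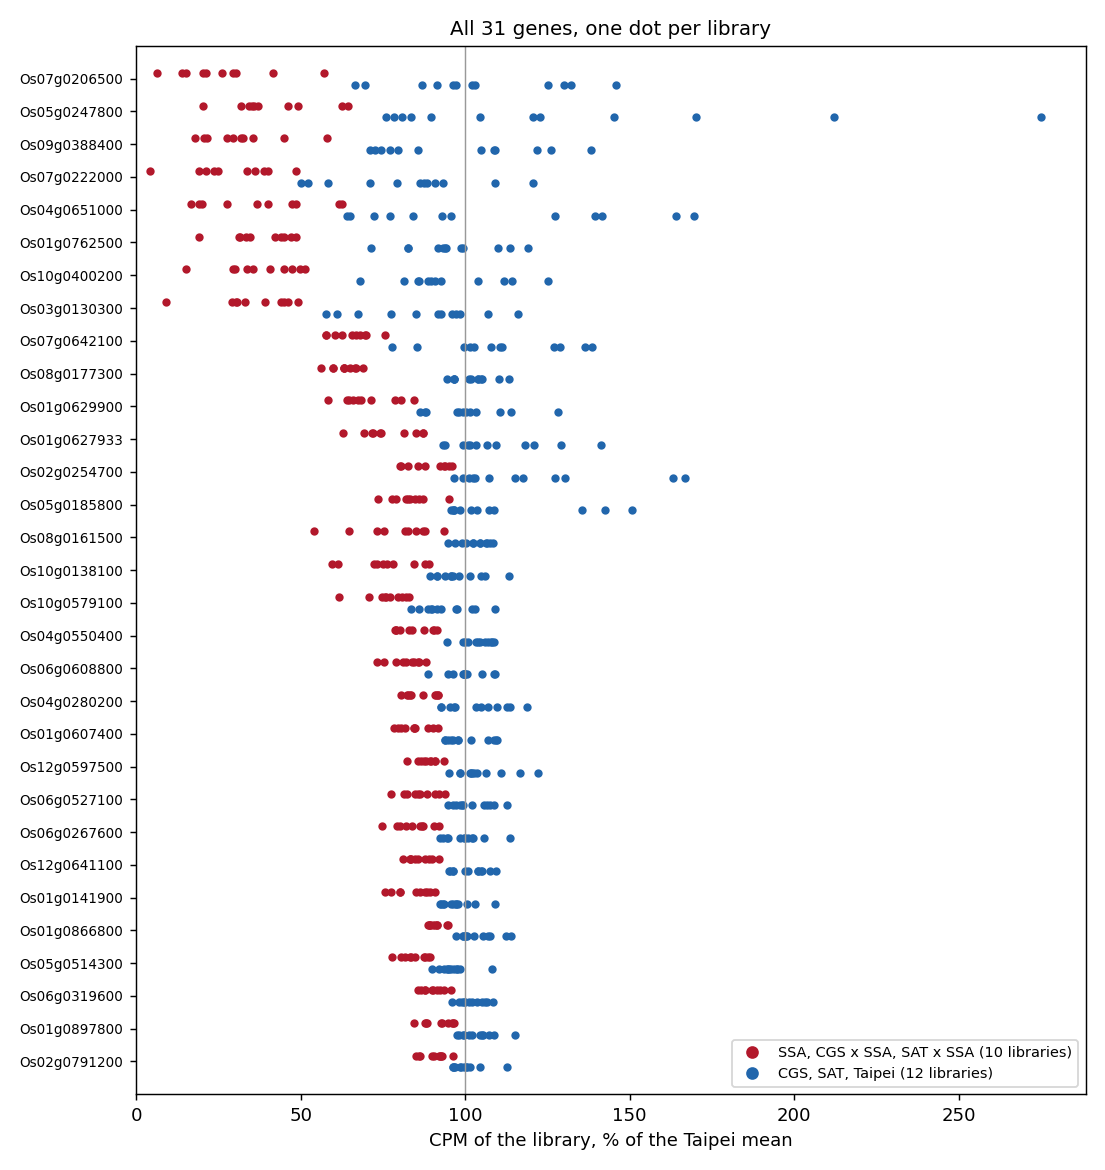
CPM of each of the 31 genes in each library, as a percentage of the mean of that gene in Taipei, with the 10 HaSSA libraries in red above the 12 others in blue. Genes are ordered by the log2 difference, with Os07g0206500 at -1.99 on top and Os02g0791200 at -0.15 at the bottom, and no red dot lies right of the leftmost blue dot of its gene.

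Os01g0762500 had 15027, 14142 and 8523 CPM in the libraries of SSA, 18889, 15555, 19726 and 21138 CPM in CGS × SSA and 20153, 14027 and 21827 CPM in SAT × SSA. In the lines without HaSSA it had 41190.2, 42293, 41869, 44342 and 31983 CPM in CGS, 44634, 37046 and 53433 CPM in SAT and 49342, 50993, 42161 and 37074 CPM in Taipei. Its mean fell to 28.0% of that of Taipei in SSA, to 41.9% in CGS × SSA and to 41.6% in SAT × SSA, while CGS and SAT stood at 89.8% and 100.3%. The gap of this gene was the widest of all 31, with the lowest library without HaSSA 1.47 times above the highest HaSSA library.

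Os10g0400200 was close to it in profile. It had 10706, 10497 and 5385 CPM in SSA, 15957, 11928, 14409 and 16802 CPM in CGS × SSA and 17729, 12606 and 18245 CPM in SAT × SSA. Against these stood 30376, 31467, 31788, 32261 and 24175 CPM in CGS, 36884, 30556 and 44486 CPM in SAT and 39667, 40597, 32864 and 28848 CPM in Taipei. In both genes replicate 3 of SSA was the lowest of the HaSSA libraries and replicate 5 of CGS the lowest of the others.

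Os07g0206500 showed the largest difference of the 31 genes, -1.99 on the log2 scale. It had 1587, 1454 and 664 CPM in SSA, 3075, 2143, 2231 and 2745 CPM in CGS × SSA and 4374, 3183 and 5987 CPM in SAT × SSA. In CGS it had 10186, 13849.6, 10691, 13644 and 7289.9 CPM, in SAT 10790.5, 6975 and 15285 CPM and in Taipei 13118, 10116, 9599 and 9115 CPM. The 3 HaSSA lines did not overlap one another in this gene, with SSA lowest and SAT × SSA highest. Its mean was 11.8% of that of Taipei in SSA, then 24.3% in CGS × SSA and 43.05% in SAT × SSA.

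Os03g0130300 and Os07g0222000 followed the same order of lines at lower levels. Os03g0130300 had 1252, 1308 and 394 CPM in SSA, 2128, 1327, 1431 and 1906 CPM in CGS × SSA and 1989, 1688 and 1944 CPM in SAT × SSA, against 3341, 2913, 4249, 2642 and 2492 CPM in CGS, 4194, 4146 and 4002 CPM in SAT and 4625, 5016, 3959 and 3681 CPM in Taipei. Os07g0222000 had 46.3, 60.9 and 10.5 CPM in SSA, 118, 51.9, 57.4 and 82.3 CPM in CGS × SSA and 98.2, 88.0 and 94.99 CPM in SAT × SSA, against 174, 142, 228, 128 and 122 CPM in CGS, 214, 216 and 211 CPM in SAT and 267, 295, 222 and 194 CPM in Taipei. In Os07g0222000 replicate 1 of CGS × SSA came within 1.03 times of the lowest CGS library. Both genes had their lowest means without HaSSA in CGS, at 72.4% of Taipei for Os03g0130300 and 65.1% for Os07g0222000.

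**Figure D3:**
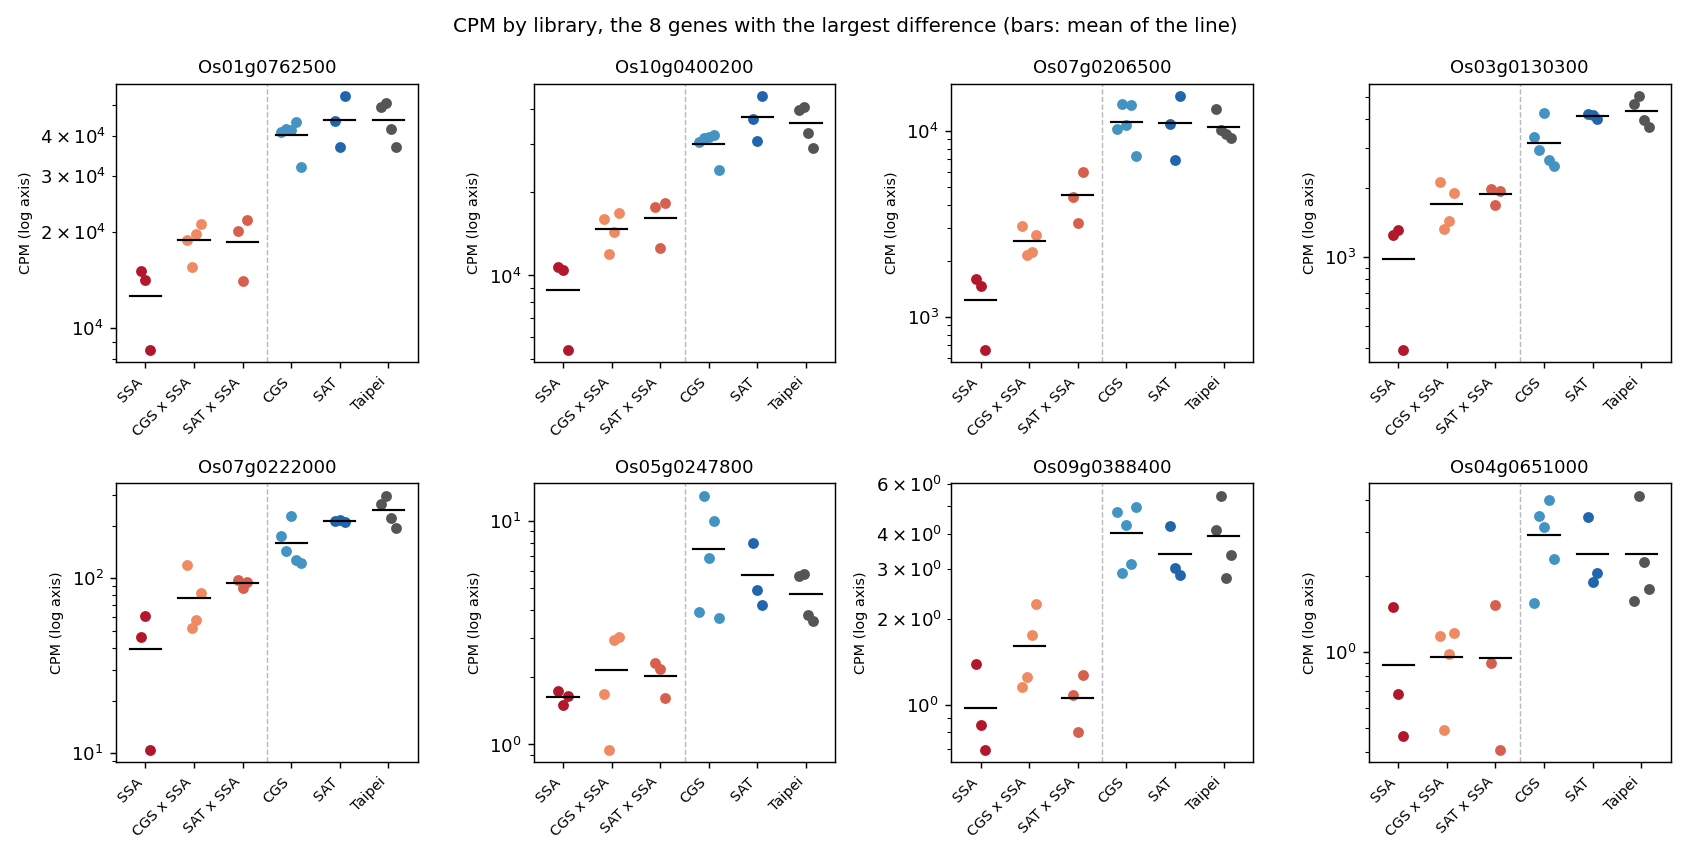
CPM on a log axis of the 8 genes with a log2 difference under -1, by line, with a dot for each library and a bar for the mean of the line, the HaSSA lines left of the dashed line. In the 5 genes with the highest counts, SSA had the lowest mean and its replicate 3 the lowest value of all, at 8523 CPM in Os01g0762500 and 10.5 CPM in Os07g0222000.

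The other 3 genes with a difference under -1 were weakly expressed. Os05g0247800 had 1.74, 1.499 and 1.65 CPM in SSA, 1.68, 0.949, 2.95 and 3.03 CPM in CGS × SSA and 2.31, 2.17 and 1.62 CPM in SAT × SSA, against 3.92, 12.9, 6.82, 9.97 and 3.68 CPM in CGS, 8.003, 4.91 and 4.22 CPM in SAT and 5.68, 5.76, 3.79 and 3.57 CPM in Taipei. Os09g0388400 averaged 0.978 ± 0.364 CPM in SSA, 1.61 ± 0.514 CPM in CGS × SSA and 1.05 ± 0.237 CPM in SAT × SSA, against 4.01 ± 0.938 in CGS, 3.38 ± 0.774 in SAT and 3.92 ± 1.14 in Taipei. Os04g0651000 averaged 0.883 ± 0.551 CPM in SSA, 0.954 ± 0.322 CPM in CGS × SSA and 0.947 ± 0.561 CPM in SAT × SSA, against 2.90 ± 0.961 in CGS, 2.45 ± 0.835 in SAT and 2.45 ± 1.17 in Taipei. These levels rest on few reads, from 31 to 381 per library in Os05g0247800, from 27 to 188 in Os09g0388400 and from 16 to 136 in Os04g0651000. Counting error adds to the spread at such depth, and its part in the spread was not measured. With Os01g0627933, which had 52 to 112 reads and a difference of -0.52, they were the 4 genes nearest to the limit of 1 CPM, with Taipei means of 4.70, 3.92, 2.45 and 2.34 CPM, and no gene failed on that limit alone.

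Among the genes of moderate difference, Os08g0177300 was the most even. It had 59.3, 62.7 and 65.8 CPM in SSA, 59.4, 68.4, 66.2 and 62.7 CPM in CGS × SSA and 55.7, 62.5 and 64.5 CPM in SAT × SSA, against 95.7, 103, 93.7, 112 and 100.3 CPM in CGS, 109, 103 and 104 CPM in SAT and 101, 95.7, 104 and 95.8 CPM in Taipei. The HaSSA lines lay at 61.5% to 64.8% of the Taipei mean, and the gap of 1.37 times was second only to that of Os01g0762500 among the 31 genes. Unlike the abundant genes, it showed no lower value in replicate 3 of SSA. Os07g0642100 had 8.98, 9.75 and 9.42 CPM in SSA, 11.8, 10.4, 10.9 and 10.6 CPM in CGS × SSA and 10.9, 8.99 and 10.3 CPM in SAT × SSA, against 21.3, 17.4, 20.1, 19.8 and 21.6 CPM in CGS, 16.8, 15.5 and 12.2 CPM in SAT and 15.8, 13.3, 17.2 and 16.0 CPM in Taipei. Os01g0629900 averaged 56.4 ± 5.77 CPM in SSA, 64.2 ± 7.80 CPM in CGS × SSA and 59.3 ± 7.10 CPM in SAT × SSA, against 92.8 ± 11.2 in CGS, 78.4 ± 6.54 in SAT and 85.8 ± 8.10 in Taipei.

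The 19 genes with a difference above -0.5 lay between 23.7 and 303 CPM in all line means, and their HaSSA mean was 74.5% to 90.2% of that of the other libraries. Os01g0607400 averaged 247 ± 10.6 CPM in SSA, 259.6 ± 13.2 CPM in CGS × SSA and 249.6 ± 17.6 CPM in SAT × SSA, against 302 ± 23.3 in CGS, 303 ± 22.2 in SAT and 299 ± 16.4 in Taipei. Os08g0161500 averaged 197 ± 49.5 CPM in SSA, 242 ± 24.5 CPM in CGS × SSA and 228 ± 11.5 CPM in SAT × SSA, against 300.0 ± 10.5 in CGS, 296 ± 15.8 in SAT and 286 ± 10.1 in Taipei. The spread of Os08g0161500 in SSA came from 252, 185 and 155 CPM in the single libraries.

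Further genes of this range that were among the 10 with the highest Taipei means or 10 largest differences were Os01g0897800 (-0.18), Os10g0579100 (-0.31), Os10g0138100 (-0.37), Os02g0254700 (-0.42) and Os05g0185800 (-0.42), each with its log2 difference. The rest were Os04g0550400 (-0.30), Os06g0319600 (-0.18), Os05g0514300 (-0.19), Os12g0641100 (-0.24), Os04g0280200 (-0.26), Os06g0608800 (-0.29), Os01g0866800 (-0.19), Os12g0597500 (-0.25), Os06g0527100 (-0.25), Os01g0141900 (-0.21), Os06g0267600 (-0.24) and Os02g0791200 (-0.15). Just inside the pattern stood Os02g0791200, with 25.9 CPM in its highest HaSSA library and 26.0 CPM in its lowest other library, Os10g0138100, with 96.1 and 96.4 CPM, and Os06g0319600, with 91.1 and 91.5 CPM. Just outside stood Os01g0120700, with 89.7 and 89.6 CPM, Os05g0414501, with 40.6 and 40.5 CPM, and Os06g0651600, with 38.7 and 38.6 CPM. These pairs differ by far less than the spread within a line, so which genes of small difference belong to the set is decided by single libraries.

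The scaling of the libraries mattered for the small differences and for some of the large ones. Without TMM, with CPM set by library size alone, the median log2 difference of all genes from 1 CPM up was 0.21 between the libraries with and without HaSSA, against a median of -0.0032 with TMM. The genes that no longer met the pattern on that scale included Os07g0222000 and Os04g0651000, each at -1.50 with TMM, and Os07g0642100, at -0.76 with TMM. On that scale only 7 genes met the pattern, all of them among the 31, namely Os01g0762500, Os10g0400200, Os07g0206500, Os03g0130300, Os08g0177300, Os05g0247800 and Os09g0388400. The same 7 met it under RLE scaling, under TMM factors from the genes kept for testing and with unstranded counts. With library size alone, the difference ranged from -1.77 to 0.06 over the 31 genes and was above 0 in Os01g0866800 (0.02), Os01g0897800 (0.04), Os02g0791200 (0.06), Os05g0514300 (0.02) and Os06g0319600 (0.03). Relative to the shift of all genes these values ran from -1.98 in Os07g0206500 to -0.15 in Os02g0791200, close to those with TMM, since subtracting the shift largely undoes the change of scaling.

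**Figure D4:**
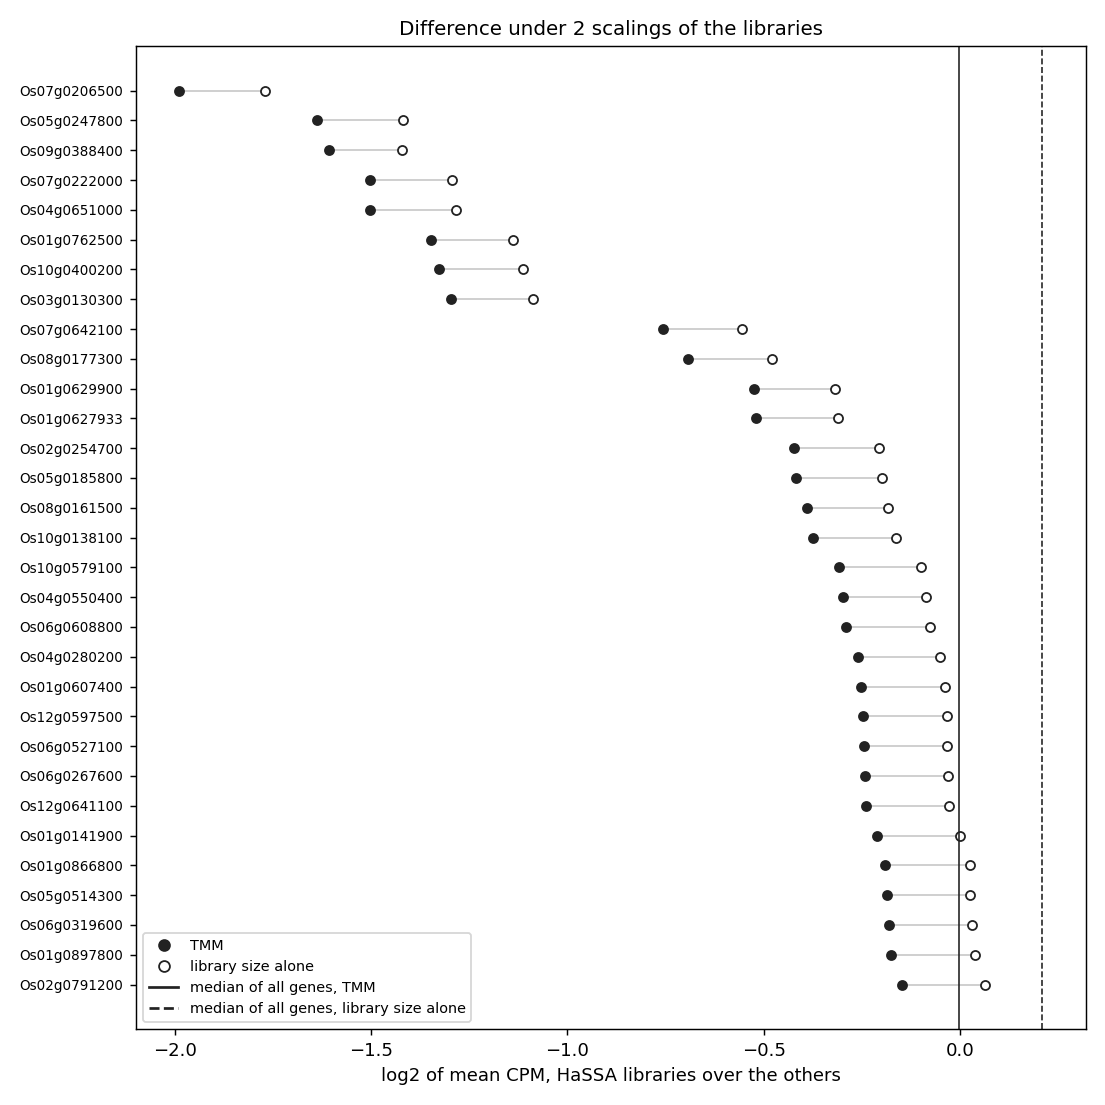
Log2 difference of mean CPM between the 10 HaSSA libraries and the 12 others for each of the 31 genes, with TMM scaling (filled) and with library size alone (open), and vertical lines at the median of all genes from 1 CPM up. The open symbols of 5 genes lie right of 0, and the dashed line stands at 0.21.

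CGS was set against Taipei to see whether AtD-CGS without HaSSA moved these genes, which the choice of genes did not use apart from the lower limit it puts on both lines. Os02g0254700 alone passed the test (edgeR quasi-likelihood, adjusted p under 0.01), 1 of 31 genes higher, where 2.36% of all 26732 genes tested were higher and 1.34% lower. It had 72.5, 105, 80.2, 103 and 74.0 CPM in CGS, against 62.5, 64.9, 60.8 and 63.6 CPM in Taipei, so that every CGS library was above every Taipei library. The log2 fold change was 0.46 (SE 0.0994, 95% interval 0.26 to 0.67, adjusted p = 0.00511, from 7.67e-04 to 0.0409 over the alternatives run). Replicates 2 and 4 of CGS carried the high values, and without either of them the fold change was 0.39 or 0.40 and the adjusted p 0.0165 or 0.0173. The call was also lost without any single one of the 4 Taipei libraries (adjusted p 0.0126 to 0.0198), and in a fit of these groups alone (adjusted p = 0.0409). The same 2 CGS libraries were the highest of the line in 13 of the 31 genes, against 22.5% of the 22000 genes, and they differed from each other less than any other pair of replicates did. Os07g0642100 had a log2 fold change of 0.36 in CGS over Taipei (adjusted p = 0.0187, from 0.00639 to 0.0802 over the alternatives). Over the 31 genes, the median log2 fold change was 0.06, against 0.01 over all genes, with values from -0.62 in Os07g0222000 to 0.66 in Os05g0247800.

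In SAT against Taipei, 0 of the 31 genes passed the test with edgeR and 0 with DESeq2. With edgeR 0.400% of all genes were higher and 0.292% lower, and DESeq2 called 560 of all 26815 genes. At an unadjusted p under 0.05, 1 gene was lower and 0 were higher, where 8.04% of all genes were lower and 8.56% higher. This gene was Os10g0579100, with 114 ± 2.37 CPM in SAT and 129 ± 3.77 CPM in Taipei (log2 fold change -0.18, adjusted p = 0.279). The median log2 fold change was 0.02 over the 31 genes and 0.0033 over all genes, and the highest was 0.28 in Os05g0247800 (95% interval -0.54 to 1.11).

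The double lines were set against SSA to see whether either enzyme changed the level of these genes in the presence of HaSSA. Both comparisons share the SSA libraries, and the rule bounds all 3 lines only from above. In CGS × SSA against SSA, 30 of the 31 log2 fold changes were positive, where 49.0% of all genes were. Yet 0 of the 31 genes passed the test with edgeR and 0 with DESeq2. With edgeR 0.0486% of all genes were higher and 0.0636% lower, and DESeq2 called 79 of all 26815 genes. At an unadjusted p under 0.05, 8 genes were higher and 0 lower, where 4.71% of all genes were higher and 5.93% lower. The median was 0.12, against -0.0050 over all genes. In 10 of the 31 genes every CGS × SSA library was above every SSA library, which held for 5.05% of the 22000 genes. The largest fold changes were those of Os07g0206500 (1.05, 95% interval 0.42 to 1.67, adjusted p = 0.206), Os07g0222000 (0.98, 0.14 to 1.83, adjusted p = 0.396), Os03g0130300 (0.79, 0.19 to 1.38, adjusted p = 0.330), Os10g0400200 (0.74, 0.29 to 1.18, adjusted p = 0.205) and Os09g0388400 (0.72, 0.08 to 1.36, adjusted p = 0.411). That of Os08g0177300 was 0.04 (-0.11 to 0.19).

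In SAT × SSA against SSA, Os07g0206500 alone passed the test, 1 of 31 genes higher, where 0.165% of all genes were higher and 0.460% lower. Its 4374, 3183 and 5987 CPM in SAT × SSA stood above the 1587, 1454 and 664 CPM in SSA, a log2 fold change of 1.87 (SE 0.324, 95% interval 1.19 to 2.55, adjusted p = 0.00283 with edgeR). The direction held in all 12 alternatives run, with fold changes of 1.57 to 2.09 and adjusted p from 9.40e-08 to 0.114. The call was lost without replicate 3 of SSA (1.57, adjusted p = 0.0186) and without replicate 3 of SAT × SSA (1.61, adjusted p = 0.0188). It was also lost without replicate 1 of SAT × SSA (1.89, adjusted p = 0.0122), which stood apart in its share of reads on no gene on the strand counted. In a fit of these groups alone it was lost too (1.89, adjusted p = 0.114). Os10g0400200 had a fold change of 0.87 (0.40 to 1.34, adjusted p = 0.0697), Os07g0222000 of 1.26 (0.36 to 2.15, adjusted p = 0.242), Os03g0130300 of 0.93 (0.30 to 1.55, adjusted p = 0.201) and Os01g0762500 of 0.57 (0.13 to 1.01, adjusted p = 0.288). The median was 0.08, against -0.01 over all genes, and 25 of 31 values were positive, where 47.7% of all genes were. The groups did not overlap in 7 of the 31 genes, each higher in SAT × SSA, against 6.43% of the 22000 genes.

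**Figure D5:**
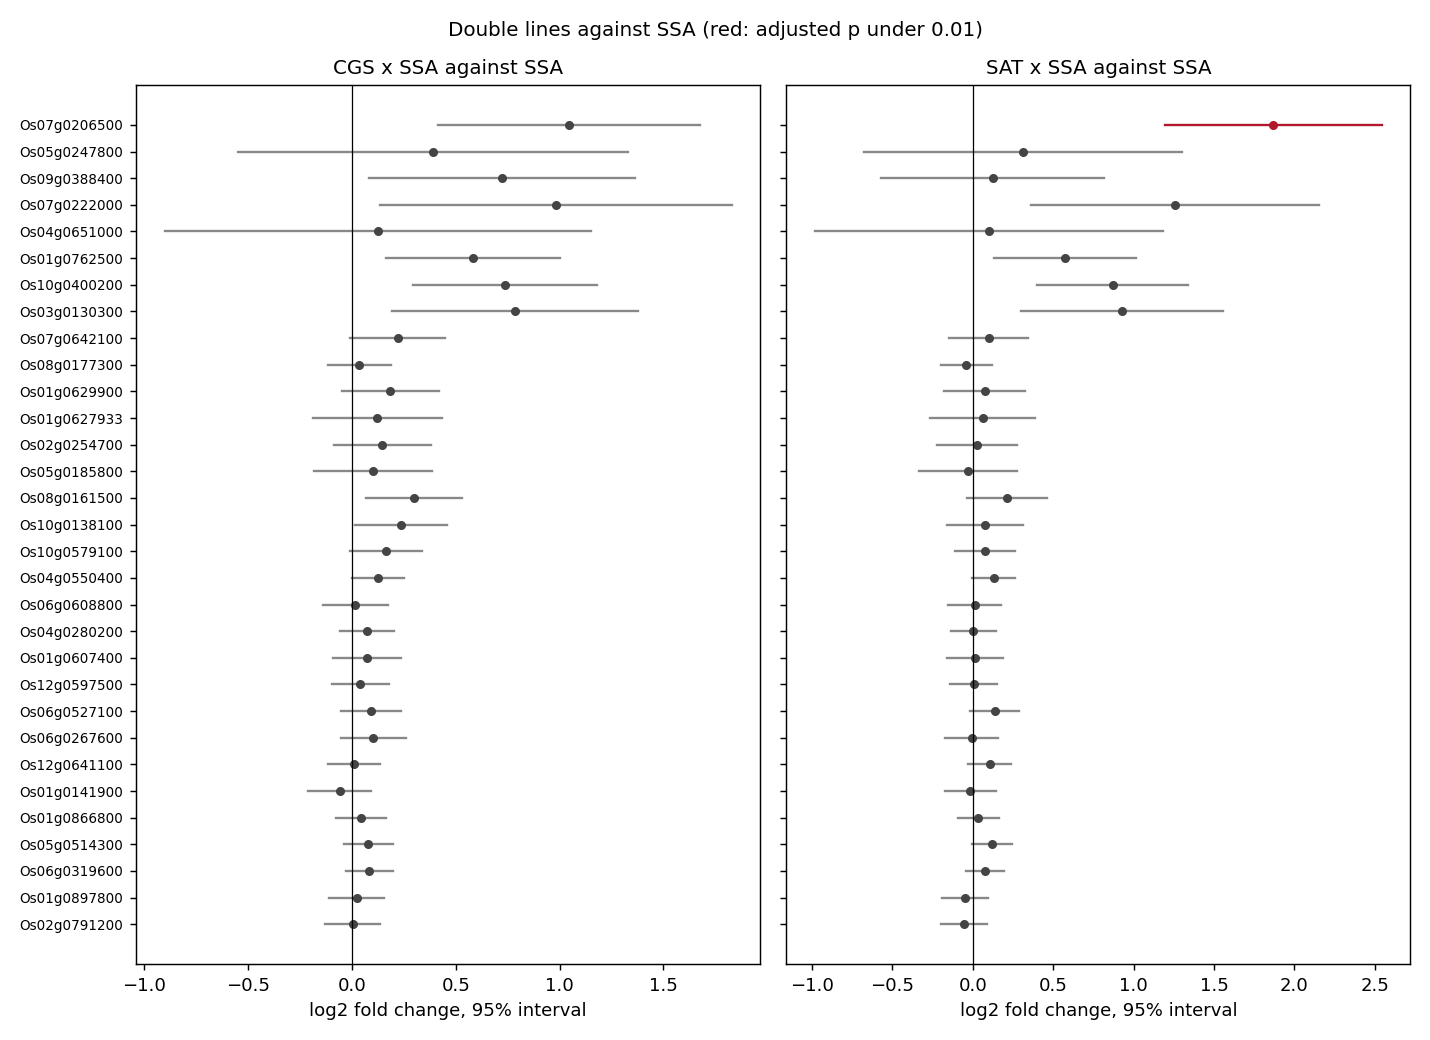
Log2 fold changes of the 31 genes in CGS × SSA (left) and SAT × SSA (right) against SSA, with 95% intervals from the edgeR fit, and genes in the order of their difference between libraries with and without HaSSA. The 5 largest values of each panel sit among the 8 genes on top. The order and the fold changes both use the SSA libraries, so this is partly built in, and nothing is read from it. Os07g0206500 in SAT × SSA, at 1.87, is the only one in red, which marks an adjusted p under 0.01.

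Replicate 3 of SSA weighed on these comparisons. It was the lowest of the 10 HaSSA libraries in 11 of the 31 genes and in 6 of the 8 with a difference under -1, against 11.4% of the 22000 genes. Without it, 29 of the 31 fold changes in CGS × SSA against SSA were positive, where 49.5% of all genes were, with a median of 0.09. At an unadjusted p under 0.05, 2 of the 31 genes were higher, where 2.08% of all genes were. In SAT × SSA against SSA, 19 of the 31 were then positive, where 46.9% of all genes were, with a median of 0.03. At that p, 4 of the 31 genes were higher, where 4.08% of all genes were. Leaving out replicate 1 of SAT × SSA instead left 26 of 31 values positive in that comparison, where 46.8% of all genes were, with a median of 0.10.

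Whether the effect of HaSSA differed in the CGS or SAT background was tested as an interaction. The choice of genes used the same libraries and fixed a fall with HaSSA in each background, but not which fall was the larger. Both interactions share the libraries of SSA, its replicate 3 included, and those of Taipei. For the effect of HaSSA in CGS minus that in Taipei, 0 of the 31 genes passed the test with edgeR and 0 with DESeq2. With edgeR 0.116% of all genes were higher and 0.269% lower, and DESeq2 called 317 of all 26815 genes. At an unadjusted p under 0.05, 7 genes were higher and 1 lower, where 6.66% of all genes were higher and 8.68% lower. The largest value was that of Os07g0222000 (1.60, 95% interval 0.50 to 2.71, adjusted p = 0.152), followed by Os03g0130300 (1.25, 0.47 to 2.03, adjusted p = 0.104), Os10g0400200 (0.98, 0.39 to 1.56, adjusted p = 0.0860) and Os01g0762500 (0.74, 0.19 to 1.29, adjusted p = 0.178). A positive value means a smaller fall with HaSSA in that background.

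For the effect of HaSSA in SAT minus that in Taipei, 0 of the 31 genes passed with edgeR and 1 with DESeq2. With edgeR 0.0973% of all genes were higher and 0.153% lower, and DESeq2 called 233 of all 26815 genes. At an unadjusted p under 0.05, 6 genes were higher and 0 lower, where 5.98% of all genes were higher and 7.35% lower. The gene called by DESeq2 was Os07g0206500, with 1.81 and an adjusted p of 0.00173, against 1.80 (95% interval 0.89 to 2.71, adjusted p = 0.0614) with edgeR and an adjusted p of up to 0.158 over the other settings. In Os08g0177300 the same difference was -0.13 (-0.35 to 0.09), and in CGS minus Taipei it was 0.0083 (-0.19 to 0.21).

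The contrasts that chose the genes are given side by side as a description, without a test, and the choice of genes fixed their sign. The log2 fold changes of the 31 genes lay between -3.09 and -0.12 in SSA against Taipei, with a median of -0.34. In CGS × SSA against CGS they lay between -2.13 and -0.14, with a median of -0.31, and in SAT × SSA against SAT between -1.67 and -0.11, with a median of -0.37. For Os08g0177300 they were -0.66, -0.65 and -0.79 in that order of contrasts, and for Os09g0388400 they were -2.01, -1.32 and -1.67.

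The order of the lines among the HaSSA libraries was counted over the 31 genes only. Without the same counts over all genes, nothing is read from them. Replicate 3 was the lowest of the SSA libraries in 17 of the 31 genes, against 37.0% of the 22000 genes. The mean of SSA was the lowest of the 3 lines in 25 of the 31 genes, that of SAT × SSA in 5 and that of CGS × SSA in 1. The highest HaSSA library, which with the lowest other library decided membership, came from CGS × SSA in 20 genes, from SAT × SSA in 10 and from SSA in 1. The lowest other library came from CGS in 14 genes, from Taipei in 11 and from SAT in 6.

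In identifier order, which in this nomenclature runs along each chromosome, the 31 genes were spread over 11 of the 12 chromosomes, with 7 on chromosome 1, 4 on chromosome 6 and 0 on chromosome 11. The closest pair, Os01g0627933 and Os01g0629900, had 10 identifiers between them. On chromosome 7, 80 identifiers ran from Os07g0206500 to Os07g0222000, of which 51 reached a Taipei mean of 1 CPM and 3, both ends included, met the pattern before genes were left out. Of these 51, 34 had a lower mean in HaSSA libraries, where 51.0% of the 22000 genes did. The 34 include the 3 that met the pattern, which are lower by that choice, and both ends of the stretch were set by it. No excess is therefore read from this count. Between the ends of this stretch, Os07g0213800, Os07g0214100, Os07g0214300, Os07g0214600 and Os07g0215500, which lie among the identifiers left out, had differences of -1.29, -1.64, -1.27, -1.47 and -1.46. The other expressed identifiers left out there were Os07g0215200, at 0.13, Os07g0216100, at -0.16, Os07g0216600, at -0.59, and Os07g0216700, at -0.76. Os07g0206400, next to Os07g0206500, had a difference of -1.97, but its highest HaSSA library, at 3750.5 CPM, was above its lowest other library, at 3274 CPM. These neighbours are named after their values were seen. Among the neighbours within 5 expressed identifiers on either side of a gene, 303 in all, the median log2 difference per gene ranged from -0.15 to 0.12 with a middle value of -0.0039. Of the neighbours, 12, or 3.96%, had a difference under -0.5, against 2.87% of the 22000 genes.

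Counts on the opposite strand of the same genes were not used to choose them, but they are no separate evidence. Whether they come from reads of the strand used, set on the wrong strand, was not tested. At an average of at least 10 such reads per library, 10 of the 31 genes could be looked at, and the other 21 were too shallow. In 9 of the 10, the HaSSA mean was lower, as in 59.7% of the 3901 genes at this depth, and the libraries with and without HaSSA overlapped in all 10, where 0.103% of the 3901 genes were lower without overlap. Os01g0762500 had 10.6 CPM on the opposite strand in HaSSA libraries and 23.3 CPM in the others, Os10g0400200 had 7.23 and 18.4 CPM, and Os07g0206500 had 2.23 and 10.6 CPM. These were 0.0560%, 0.0540% and 0.0939% of the counts on the strand used.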

How the data were processed

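Milkripe seeds of Taipei and 5 transgenic lines were profiled in 22 rRNA-depleted, strand-specific libraries. Per the submitters' notes and the paper, STAR 2.7.1a was run on the genome build IRGSP-1.0. The files deposited by the authors give raw counts per gene, 38866 genes in all, of reads mapped to 1 place, unstranded and by strand. The anti-strand column, which the paper used, was taken here. Between 29642343 and 41585957 counts per library were assigned to genes. Intervals of the fits cover the spread between libraries, and reads carry no molecular identifiers.

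Groups come from the labels. CPM was computed with TMM factors over all genes. The genes kept by filterByExpr (26732, all 31 genes included) were tested with edgeR 4.0.16 in R 4.3.3 (quasi-likelihood, robust) in 1 fit of the 22 libraries with a term for line and no other. Two-sided p-values were adjusted across the whole set of tested genes (Benjamini-Hochberg), and genes were called under 0.01. The standard error is the log2 fold change over the root of F. The script was tested on simulated data. The 6 comparisons were CGS and SAT against Taipei, CGS × SSA and SAT × SSA against SSA, and both interactions. Each shares libraries with another. Alternatives were DESeq2 1.42.0, RLE factors, no filter on low counts, unstranded counts, a threshold of 0.05, only the groups compared, the replicate number as a block, and leaving out each library. For the choice of genes they were RLE, library size alone, TMM from the genes kept, unstranded counts, a limit of 5 CPM, and leaving out each library.

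The members and lists were chosen with earlier results of these data known. Genes in a supplemental table of the paper, Os06g0507200, Os03g0766100, Os05g0499100 and the identifiers from Os07g0213800 to Os07g0216700 were left out. Genes are named if among the 10 highest in Taipei, the 10 largest differences from 5 CPM, past the threshold in a comparison, or next to a limit of the rule, and every other member is given by identifier.

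Replicates differed by a chi-square of 4.62 to 54.8 per gene, so all were treated as separate samples. Deviations from the line means were correlated between equal replicate numbers. The correlations were 0.12, 0.14 and 0.21 in SAT × SSA and SSA and 0.11, 0.06 and 0.17 in CGS × SSA and SSA. In CGS and Taipei they were -0.24, -0.28, -0.10 and -0.02, and in SAT and Taipei 0.14, 0.40 and -0.17. The labels do not say that equal numbers belong together, so the main fit paired no libraries, and the replicate number was a block only in an alternative. The RefSeq table given (ASM3414082v1) matched 1 of 38866 identifiers and 0 of the 31, so neither names nor sequences are given.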

Additional observations from a re-analysis of the deposited data

Results flagged for a closer look

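Among 93 groups of 4 or 5 libraries, 1 for each of the 31 genes in CGS × SSA, CGS and Taipei, 6 held a library set far apart from the rest of its line, where chance gives about 1 in 20. Replicate 5 of CGS was low in Os01g0762500, at 31983 CPM with the next at 41190.2 CPM, and in Os10g0400200, at 24175 CPM with the next at 30376 CPM. In both genes it was the lowest of the 12 libraries without HaSSA. Replicate 1 of CGS × SSA was low in Os04g0280200, at 65.3 CPM with the next at 72.1 CPM. Replicate 3 of Taipei was high in Os01g0141900, at 41.0 CPM with the next at 36.7 CPM. Replicate 3 of CGS × SSA was high in Os06g0267600, at 30.0 CPM with the next at 28.4 CPM, where it set the gap to the libraries without HaSSA. Replicate 1 of CGS was high in Os02g0791200, at 30.4 CPM with the next at 27.0 CPM.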

How the results depend on the processing

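The number of genes that met the pattern was 31, and it was 7 with library size alone, 33 with RLE, 35 with TMM factors from the genes kept for testing, 27 with unstranded counts and 27 at 5 CPM or more in Taipei. Of the 31, 29 remained with RLE, 30 with TMM from the genes kept and 24 with unstranded counts. Leaving out single libraries gave 31 to 53 genes, with 53 each without replicate 4 of CGS × SSA and without replicate 4 of Taipei. Leaving a library out loosens the pattern apart from small shifts in scaling, so that genes stayed in the set is no sign of stability. Without replicate 4 of CGS × SSA, Os02g0254700 left it. The log2 difference turned with library size alone in Os01g0866800 (0.024), Os01g0897800 (0.038), Os02g0791200 (0.063), Os05g0514300 (0.025) and Os06g0319600 (0.031), where the shift of all genes was 0.21. For CGS against Taipei, 1 of the 31 genes was called, against 988 of all 26732 genes tested. There were 2 with DESeq2 (1673 of all 26815), 2 at an adjusted p under 0.05 (2476 of 26732) and 0 in a fit of these groups alone (367 of 25454). Without single libraries there were 0 to 1, where all genes called ran from 488 of 26709 to 1054 of 26708. For SAT × SSA against SSA, 1 of the 31 genes was called, against 167 of all 26732. There were 2 with DESeq2 (276 of all 26815) and 0 in a fit of these groups alone (97 of 25720). Without single libraries the number was 0 to 1, where all genes called ran from 95 of 27054 to 167 of 27039. The second gene with DESeq2 was Os07g0642100 for CGS (adjusted p = 0.00639) and Os10g0400200 for SAT × SSA (adjusted p = 0.00445). For the effect of HaSSA in SAT minus that in Taipei, DESeq2 called 1 of the 31 genes and 233 of all 26815. With edgeR these were 0 and 67 of all 26732. The other comparisons had 0 calls in every setting, leaving out single libraries included. Over these settings, all genes called ran from 99 to 631 in SAT against Taipei and from 20 to 79 in CGS × SSA against SSA. For the effect of HaSSA in CGS minus that in Taipei they ran from 47 to 383. With unstranded counts Os04g0280200 had a log2 fold change of -0.11 in CGS against Taipei, against 0.17 on the strand used. With library size alone, the marker sums differed by -272 CPM for endosperm (p = 0.277), 109.9 CPM for embryo and aleurone and 129 CPM for green pericarp in the permutation tests. Causes were not tested beyond what the settings themselves change. With the replicate number as a block, 1 gene was called in SAT × SSA against SSA, the same Os07g0206500, 1 in CGS against Taipei and 0 elsewhere, so the block changed no call. Of all 26732 genes, it called 130 in SAT × SSA against SSA and 595 in CGS against Taipei. Depth limits the 4 genes under 10 CPM, with 16 to 381 reads per library, and the opposite strand, where 21 genes were too shallow.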
